A study of Mus musculus with 36 samples.

Results

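Cells that respire produce superoxide and hydrogen peroxide, and a small set of enzymes and metal-binding proteins removes them. The expression of 10 genes, all but Txnip of this kind, was followed through the development of the mouse heart. The enzymes were the superoxide dismutases Sod1, Sod2 and Sod3, catalase (Cat), the glutathione peroxidases Gpx1 and Gpx3, and the mitochondrial peroxiredoxin Prdx3. The others were the metallothioneins Mt1 and Mt2 and the thioredoxin-interacting protein Txnip, which binds thioredoxin. The 10 genes were taken by gene symbol and are read by 21 of the 45101 probe sets on the array, which together cover 20701 annotated genes. All 10 were found in RefSeq by gene ID.

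Hearts of OF1 mice, an outbred strain, were collected at 12 stages with 3 arrays each, 36 in all: daily from E10.5 to E19.5, in young adults 10 weeks old, and in old adults. Old adults are 10 months old in the study's methods and 14 months old in the series description. At E10.5 and E11.5 all 6 arrays hold RNA of mixed sex. From E12.5 on, each stage has 1 female, 1 male and 1 mixed sample, the last holding hearts of both sexes. No group is labelled with a treatment or an allele, and the litters of the embryos are not given, so the p-values measure the spread between these samples. The whole heart was homogenised, so fewer cells of a type and less RNA per cell cannot be told apart. The extraction label names liver, while the tissue label and the methods name heart. All 7 cardiomyocyte markers on the array had means over 5 at every stage, and the 7 liver markers had means under 5 at every stage, with the exception of Ahsg in young adults.

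Superoxide dismutases turn superoxide into hydrogen peroxide: Sod1 mainly in the cytosol with copper and zinc, Sod2 in the mitochondrial matrix with manganese, and Sod3 outside the cell. Catalase in peroxisomes, glutathione peroxidases and peroxiredoxins then reduce the peroxide, the peroxidases with electrons from glutathione and Prdx3 with electrons from mitochondrial thioredoxin. Metallothioneins are small cysteine-rich proteins that bind zinc and copper, and their genes respond to these metals through the factor MTF1 and to glucocorticoids. Txnip binds thioredoxin and lowers glucose uptake, and its gene responds to glucose through the factors MondoA and ChREBP, which bind carbohydrate response elements. The heart changes around birth from glucose and lactate to fatty acids as fuel, in air with more oxygen than the fetus meets.

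The promoters of the members with known metal or sugar responses show where these factors could bind. Windows from RefSeq (GRCm38.p6), reaching from 250 bases before a transcript start to 50 bases after it, were found for 9 of the 10 genes. The part ending 30 bases past the start is printed for Mt1 (chr8:94178839-94179118, plus strand), Mt2 (chr8:94172368-94172647, plus strand) and Txnip (chr3:96557707-96557986, plus strand). The Mt1 start in the promoter table lies inside the annotated gene, which begins at 94178883, so most of the printed Mt1 sequence and all of its marked cores are within the gene span. In the metallothionein sequences capitals mark the core of the metal response element, TGCNCNC, on either strand. In the Txnip sequence they mark CACGNG repeated after 5 bases, the form of a carbohydrate response element.
Mt1 window: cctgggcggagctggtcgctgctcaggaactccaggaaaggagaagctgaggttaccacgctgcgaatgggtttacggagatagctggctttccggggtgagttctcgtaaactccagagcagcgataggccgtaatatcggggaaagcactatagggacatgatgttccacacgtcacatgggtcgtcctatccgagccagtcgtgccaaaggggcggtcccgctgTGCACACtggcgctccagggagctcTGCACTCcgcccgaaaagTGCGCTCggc
Mt2 window: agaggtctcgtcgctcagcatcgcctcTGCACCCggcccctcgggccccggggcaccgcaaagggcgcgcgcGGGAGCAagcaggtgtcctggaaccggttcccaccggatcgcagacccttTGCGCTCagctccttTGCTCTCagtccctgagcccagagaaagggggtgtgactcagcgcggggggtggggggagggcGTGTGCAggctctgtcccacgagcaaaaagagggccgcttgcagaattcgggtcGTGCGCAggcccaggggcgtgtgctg
Txnip window: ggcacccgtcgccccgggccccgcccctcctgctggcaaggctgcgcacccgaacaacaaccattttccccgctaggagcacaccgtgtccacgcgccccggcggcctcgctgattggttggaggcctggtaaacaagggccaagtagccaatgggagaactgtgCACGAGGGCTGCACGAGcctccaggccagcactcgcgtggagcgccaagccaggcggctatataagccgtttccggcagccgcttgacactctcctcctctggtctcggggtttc

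The metal response core was matched 3 times in the Mt1 window and 6 times in the Mt2 window, where overlapping matches would have been counted separately. At least 1 match is present in 51% of 32851 promoter windows, and 4 or more in 2.3%. Outside the metallothioneins, Txnip was the only member with a match, and it had 1. The CACGNG repeat was found in the Txnip window, beginning 85 bases before the start, and in 0.0487% of all windows (16 windows). The antioxidant response core TGACNNNGC, bound by NRF2, was matched once each in the Sod1 and Mt2 windows and in 12.4% of all windows. Mt2 and Mt1 are neighbours on chromosome 8 in the same orientation, with 5315 bases between them. A match is a sequence description and does not show binding in these hearts.

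Expression values are log2 intensities after robust multi-array average processing, and each gene is described by its probe set with the highest mean unless another is named. A difference of 1 is a 2-fold change. A call is a Benjamini-Hochberg adjusted p under 0.05 in limma over all probe sets. A stricter set of limits, taken from the study's methods and here called the DEG limits, asks for a log2 difference over 2 in either direction, a stage mean over 5 and an adjusted p under 1e-05. The stage means of these 10 probe sets spanned a median range of 1.77, and probe sets with a stage mean over 5 a median range of 1.39. The median SD within a stage was 0.17 for the 10 and 0.19 for those probe sets (n = 3 per stage), so the number of arrays limits the precision of each mean.

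At E19.5, 4 members (Txnip, Mt1, Sod2 and Sod3) were higher and 3 (Gpx3, Prdx3 and Gpx1) lower than at E10.5, beside 23.7% of all probe sets called higher and 21.8% lower. Txnip alone passed the DEG limits, which 2.18% of all probe sets did. In young adults against E10.5, 4 members were higher (Txnip, Mt1, Gpx1 and Sod3) and 2 lower (Gpx3 and Prdx3), beside 35.9% and 27.1%, and 1 passed the DEG limits, beside 6.53%. Between E19.5 and young adults 2 rose (Gpx1 and Sod1) and 1 fell (Sod2), beside 13.6% and 15.5%, and 1 passed the DEG limits, beside 1.45%. The first 2 of these comparisons share the E10.5 arrays, and the third shares an array group with each. The median log2 difference of the 10 was 0.30, 0.31 and 0.15 in these comparisons, and that of all probe sets 0.15, 0.19 and 0.04. That of probe sets with a stage mean over 5 was -0.21, -0.41 and -0.13.

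**Figure D1:**
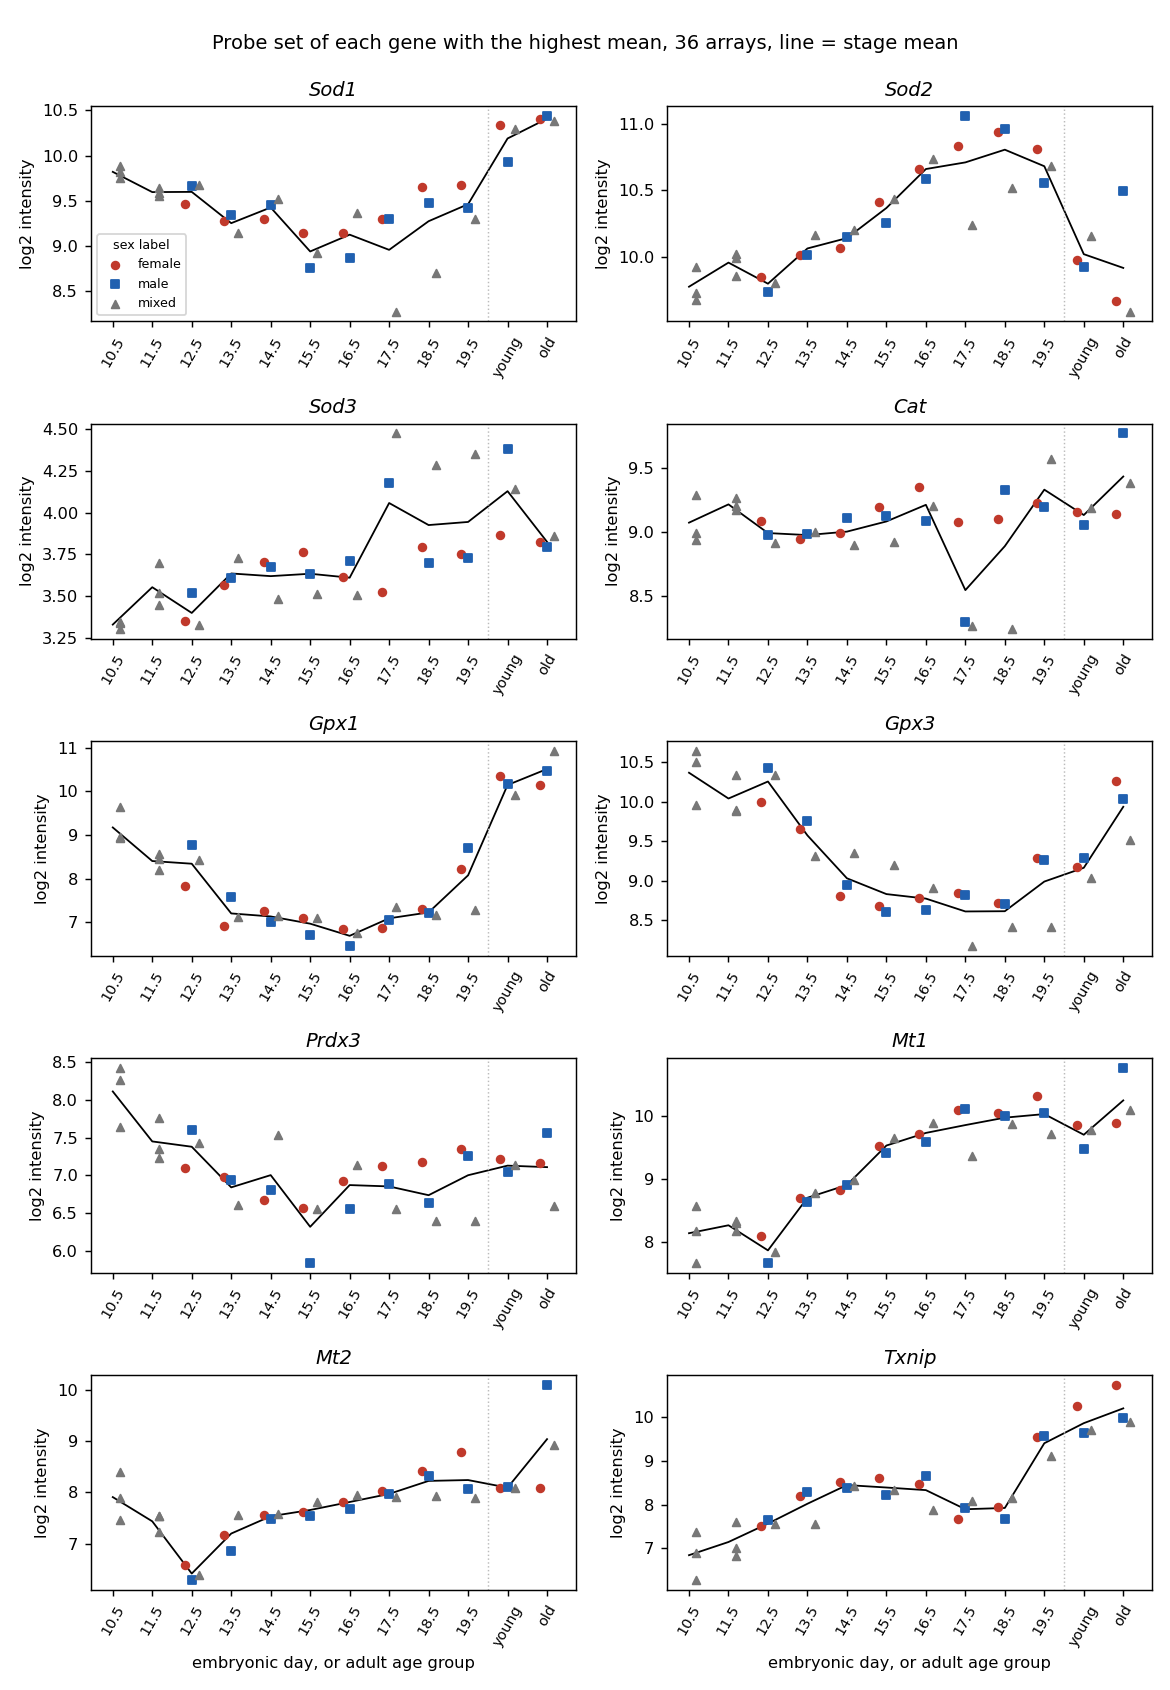
Log2 intensity (y axis) of the probe set with the highest mean for each of the 10 genes at 12 stages (x axis), with 1 point per array, shape and colour for the sex label, and the stage mean as a line. Gpx1 falls to E16.5 and is highest in adults, Txnip steps up at E19.5, Sod2 is highest at E18.5, and the old adult male array stands above the other old arrays for Mt1 and Mt2.

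**Figure D2:**
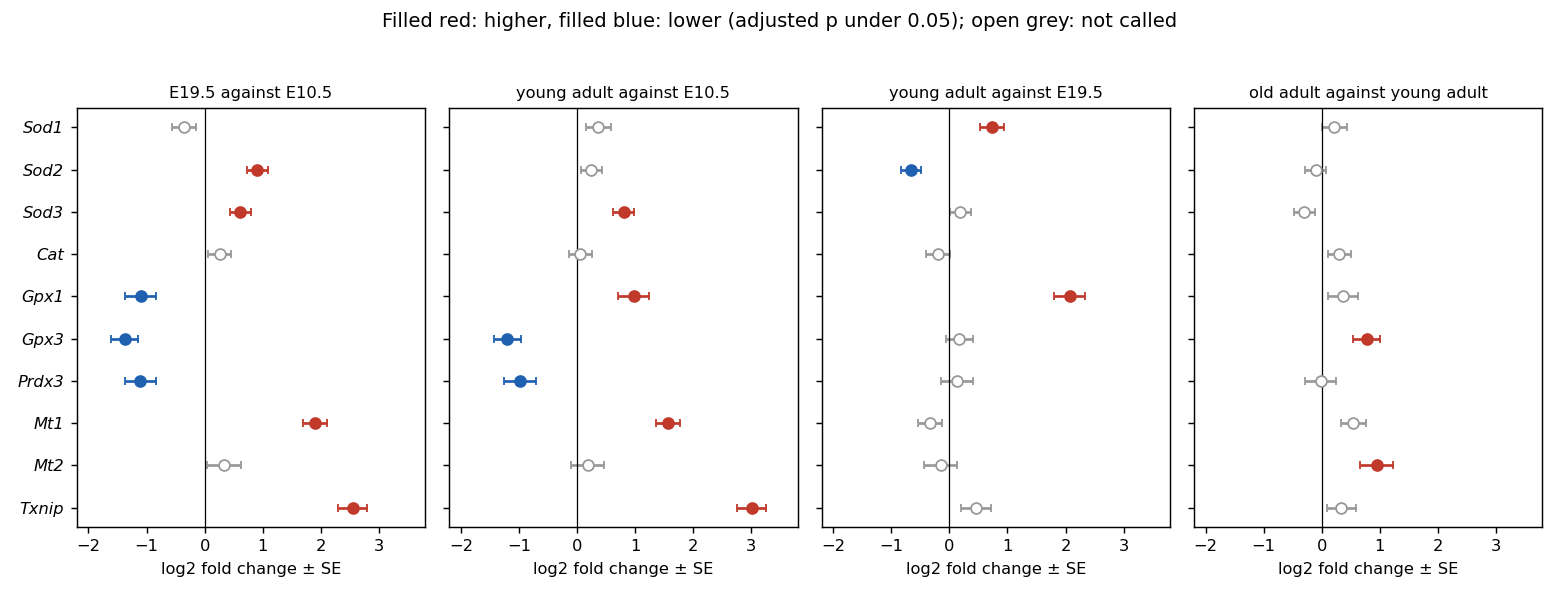
Log2 fold change with its SE from limma (x axis) for the 10 genes (y axis) in the 4 main comparisons, filled where the adjusted p was under 0.05. Txnip and Mt1 lie farthest right against E10.5, and Gpx1 lies left of 0 in the first panel and at 2.07 in the third.

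Some array measures moved with stage and bear on every comparison. Hybridization controls, bacterial transcripts spiked into every sample, read 9.68 to 10.35 at E10.5, 10.97 to 11.39 at E19.5, 12.03 to 12.43 in young adults and 11.16 to 11.56 in old adults. The Gapdh difference between the 3′ and the 5′ probe sets, a measure of transcript completeness, was 2.19 to 3.95 at E10.5, 3.72 to 4.13 at E19.5, 1.39 to 2.25 in young adults and 2.06 to 2.63 in old adults. In between it reached 4.65 to 4.79 at E13.5, 4.29 to 4.83 at E14.5, 4.31 to 5.06 at E15.5 and 4.68 to 5.07 at E16.5. The mixed E17.5 array stood apart from its stage, with a Gapdh difference of 2.76 against 4.32 and 4.49 and controls at 12.01 against 10.95 and 11.60. The third E10.5 array also stood apart, with a Gapdh difference of 3.95 against 2.25 and 2.19 and controls at 10.35 against 9.68 and 9.68. It was the lowest E10.5 array for Gpx1, Gpx3, Prdx3, Sod1, Sod3 and Txnip and the highest for Cat, Sod2, Mt1 and Mt2, and so an extreme of its stage for every member. Without it the E19.5 to E10.5 differences were -1.58 for Gpx3, -1.34 for Prdx3, 2.26 for Txnip and 2.11 for Mt1, and Mt1 then passed the DEG limits beside Txnip; no member gained or lost a call against E10.5 at E19.5 or in young adults. The mixed arrays of E18.5 and E19.5 also had the highest controls of their stages (11.56 and 11.39). Sample titles change form from the E16.5 female array on (20 arrays before, 16 after), so that the comparisons of E10.5 with E19.5 and with young adults cross this change and cannot be told apart from it.

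Sod2, the matrix superoxide dismutase (chr17:13007839-13018119 in GRCm38.p6, the build of all gene positions here), was highest before birth on its brightest probe set. Its E10.5 arrays read 9.68, 9.72 and 9.92, the E18.5 arrays 10.94 (female), 10.96 (male) and 10.51 (mixed), and the young adult arrays 9.97, 9.92 and 10.16. Sod2 was 1.87-fold higher at E19.5 than at E10.5 (log2 0.91 ± 0.18, adjusted p = 0.000132) and 1.58-fold lower in young adults than at E19.5 (log2 -0.66 ± 0.18, adjusted p = 0.00494), without overlap of arrays in either comparison. Of the other 3 Sod2 probe sets, the one closest in course (r = 0.83 over 12 stage means) was also highest at E18.5, at 7.61, and had returned to 7.13 at E19.5. The second brightest (r = 0.22) and the dimmest had their highest means in young adults, at 8.92 and 4.33. None of the 3 was called between E19.5 and E10.5 (0.10, 0.07 and 0.24), and the dimmest was called higher in young adults than at E19.5 (0.46, adjusted p = 0.0134). With the mean over all 4 probe sets neither Sod2 difference was called (0.33 with adjusted p = 0.104, and -0.06 with adjusted p = 0.823).

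Sod1, the cytosolic enzyme (chr16:90220762-90226333), was lowest at E15.5 and highest in adults. Its E10.5 arrays stood at 9.89, 9.82 and 9.75, the E19.5 arrays at 9.67, 9.42 and 9.29, the young adult arrays at 10.34, 9.93 and 10.30, and the old adult arrays at 10.41, 10.44 and 10.38. Young adults were 1.66-fold higher than E19.5 (log2 0.73 ± 0.21, adjusted p = 0.00748). The difference between E19.5 and E10.5 was -0.36 ± 0.21 and was not called (adjusted p = 0.154), although the arrays did not overlap. Of the other 4 Sod1 probe sets, the second brightest (r = 0.97 with the first over 12 stage means) was called lower at E19.5 than at E10.5 (log2 -0.81, adjusted p = 0.0199) and higher in young adults than at E19.5 (0.88, adjusted p = 0.0174). The third brightest (r = -0.77) was lower in young adults than at E19.5 (-0.77, adjusted p = 0.00675). With the mean over all 5 probe sets the rise after E19.5 was 0.27 and was not called (adjusted p = 0.184).

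Sod3, the extracellular enzyme (chr5:52363804-52369738), stayed under a level of 5 at every stage on both of its probe sets, so its changes lie in the low range of the array. The E10.5 arrays read 3.34, 3.34 and 3.30 and the E19.5 arrays 3.75 (female), 3.73 (male) and 4.35 (mixed). The difference of 0.62 ± 0.18 was called (adjusted p = 0.00657), and was 0.41 and no longer called without the mixed E19.5 array. Young adults exceeded E10.5 by 0.80 ± 0.18 (adjusted p = 0.000362), and were 2.84-fold higher on the second probe set (adjusted p = 4.51e-08).

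Cat (chr2:103453904-103485153) showed no called difference on its first probe set in the main comparisons or between consecutive stages. Its E10.5 arrays read 8.94, 8.99 and 9.29, the E19.5 arrays 9.23, 9.20 and 9.57, and the young adult arrays 9.16, 9.05 and 9.19. The differences were 0.26 at E19.5 (adjusted p = 0.291) and 0.06 in young adults (adjusted p = 0.804). The second probe set was called lower at E19.5 than at E10.5 (log2 -1.10 ± 0.37, adjusted p = 0.0156). On it the mixed arrays of E18.5 (5.14) and E19.5 (6.05) were the lowest of their stages. The 2 Cat probe sets thus differed in direction between E19.5 and E10.5.

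**Figure D3:**
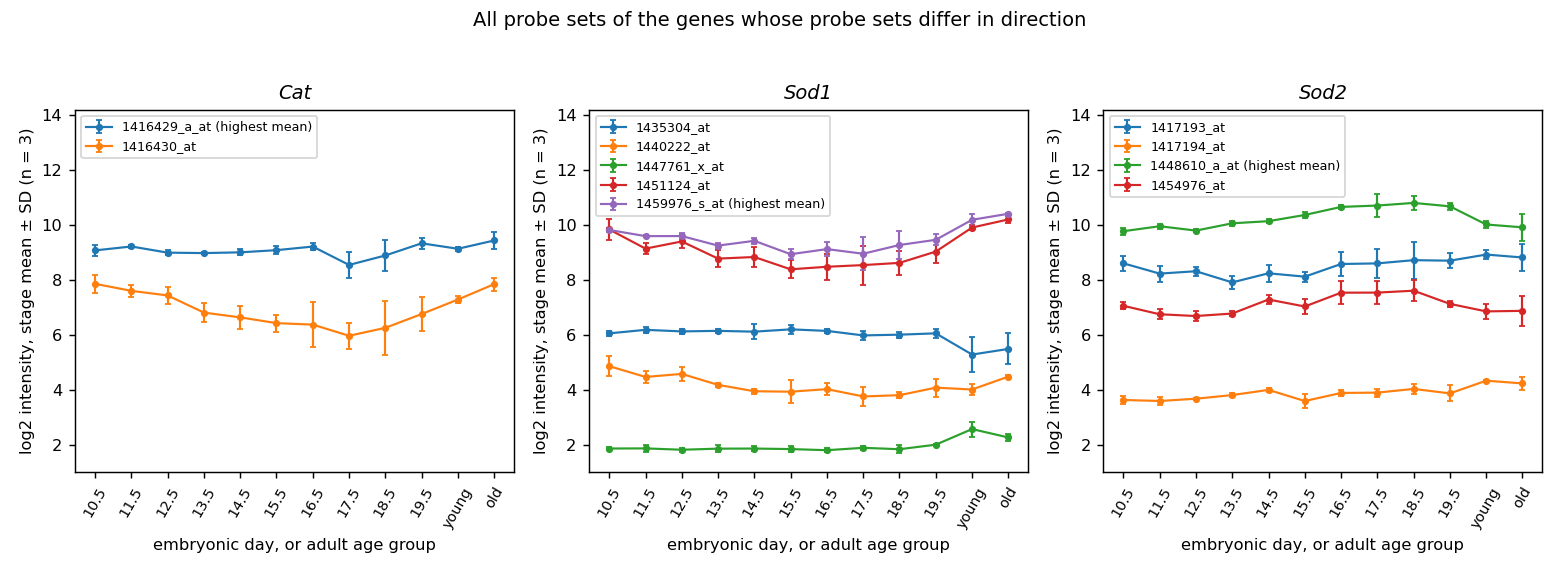
Stage means with SD (n = 3, y axis, log2 intensity) of all probe sets of Cat, Sod1 and Sod2 across the 12 stages (x axis). The dimmer Cat probe set has its highest mean at E10.5 (7.86) and its lowest at E17.5 (5.97), the third brightest Sod1 probe set is lower in adults where the brightest 2 are higher, and the brightest Sod2 probe set peaks at E18.5 (10.80).

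Gpx1, the main cytosolic and mitochondrial glutathione peroxidase (chr9:108339080-108340342), had the widest range of the members, 3.83 between its stage means. At E10.5 its arrays read 8.95, 9.65 and 8.92. At E13.5 they read 6.91 (female), 7.58 (male) and 7.12 (mixed), and the lowest stage mean was 6.69 ± 0.21 (SD, n = 3) at E16.5. At E19.5 the arrays read 8.23 (female), 8.71 (male) and 7.29 (mixed), and in young adults 10.35, 10.18 and 9.91. Old adults had 10.14, 10.46 and 10.94. The E10.5 arrays lay above all E19.5 arrays and below all young adult arrays, so that the course was a fall followed by a larger rise.

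Gpx1 was 2.14-fold lower at E19.5 than at E10.5 (log2 -1.10 ± 0.26 SE, adjusted p = 0.00118) and 4.21-fold higher in young adults than at E19.5 (log2 2.07 ± 0.26, adjusted p = 2.49e-07). Against E10.5, young adults were 1.96-fold higher (log2 0.97 ± 0.26, adjusted p = 0.00219). The mixed E19.5 array was the lowest of its stage, and without it the E19.5 to young adult difference was 1.68 and the E10.5 to E19.5 difference was -0.71. Gpx1 passed the DEG limits against E19.5; without the mixed E19.5 array, or without the young adult female array (1.97), it did not.

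Gpx3, a secreted glutathione peroxidase (chr11:54902854-54910387), was 2.60-fold lower at E19.5 than at E10.5. Its E10.5 arrays read 10.50, 10.65 and 9.96, and the E19.5 arrays 9.29 (female), 9.26 (male) and 8.42 (mixed), with no overlap. The log2 difference was -1.38 ± 0.23 (adjusted p = 1.63e-05), and young adults, at 9.17, 9.29 and 9.03, differed from E10.5 by -1.20 ± 0.23 (adjusted p = 5.34e-05). The lowest stage mean was 8.61 ± 0.38 at E17.5.

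Prdx3, the mitochondrial peroxiredoxin (chr19:60864066-60874538), was also lower later on. Its E10.5 arrays stood at 8.26, 8.42 and 7.64, the E19.5 arrays at 7.35 (female), 7.25 (male) and 6.40 (mixed), and the young adult arrays at 7.21, 7.04 and 7.13. The difference was -1.10 ± 0.27 at E19.5 (adjusted p = 0.00156) and -0.98 ± 0.27 in young adults (adjusted p = 0.00287). When each array was centred on the median of well expressed probe sets, the young adult difference was -0.45 and was not called (adjusted p = 0.0662).

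Mt1 (chr8:94178883-94180327) increased through gestation. Its E10.5 arrays read 7.66, 8.18 and 8.58, the E12.5 arrays 8.10, 7.67 and 7.85, and the E13.5 arrays 8.70, 8.64 and 8.78. By E19.5 they had reached 10.32 (female), 10.06 (male) and 9.72 (mixed), with no overlap with E10.5. The mean rose in 8 of 9 daily steps; the fall was from E11.5 to E12.5. Mt1 was 3.72-fold higher at E19.5 than at E10.5 (log2 1.89 ± 0.21, adjusted p = 1.39e-08) and 2.96-fold higher in young adults (log2 1.56 ± 0.21, adjusted p = 1.53e-07). Its second probe set, near background with stage means of 3.97 to 5.00, did not differ between E19.5 and E10.5 at the threshold (log2 -0.04, adjusted p = 0.919) and was higher in young adults (log2 0.86, adjusted p = 0.00851).

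Mt2 (chr8:94172618-94173567) dipped first. The E10.5 arrays stood at 7.45, 7.88 and 8.39, and the E12.5 arrays at 6.58, 6.28 and 6.38, below every array of the other 11 stages. The mean returned to 8.24 ± 0.48 by E19.5, and Mt2 differed from E10.5 neither at E19.5 (log2 0.33 ± 0.29, adjusted p = 0.34) nor in young adults (log2 0.18 ± 0.29, adjusted p = 0.579) at the threshold. The young adult arrays read 8.08, 8.11 and 8.09.

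Txnip, the thioredoxin-binding arrestin (chr3:96557957-96561857), rose in a step before birth. Its E10.5 arrays read 7.36, 6.90 and 6.27, and the stage mean was 8.44 ± 0.07 at E14.5 (SD, n = 3) and 7.92 ± 0.23 at E18.5. At E19.5 the arrays stood at 9.54 (female), 9.55 (male) and 9.09 (mixed), and in young adults at 10.24 (female), 9.62 (male) and 9.69 (mixed). Every E19.5 array exceeded every E18.5 array, the highest of which read 8.15. Txnip was 5.85-fold higher at E19.5 than at E10.5 (log2 2.55 ± 0.25, adjusted p = 1.85e-09) and 8.03-fold higher in young adults (log2 3.00 ± 0.25, adjusted p = 1.22e-11), and passed the DEG limits in both.

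A second Txnip probe set followed the first across stages (r = 0.95 over 12 stage means, a description) at lower intensity, and was also called in both comparisons (log2 1.18 and 1.70). Between E19.5 and young adults Txnip differed by 0.46 ± 0.25, which was not called (adjusted p = 0.184). All young adult arrays were nevertheless above all E19.5 arrays.

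Young adult Gpx1 exceeded each of the 6 stages from E13.5 to E18.5 by the DEG limits, with log2 differences of 2.95, 3.02, 3.18, 3.46, 3.06 and 2.92. Among all probe sets, 4.44% passed those limits against E13.5, 4.17% against E14.5, 4.03% against E15.5, 3.46% against E16.5, 2.72% against E17.5 and 2.46% against E18.5. Txnip passed against the 2 earlier stages E11.5 (2.70) and E12.5 (2.29), where 5.39% and 5.12% of probe sets passed. In each of these 8 comparisons 1 of the 10 members passed.

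The scale of the arrays matters for the smaller differences. Centring each array on the median of its probe sets with a mean over 5 added 0.34 to every difference between E19.5 and E10.5, 0.53 between young adults and E10.5, and 0.18 between young adults and E19.5, and took 0.14 from those between old and young adults. No member changed its sign among the called differences under this centring or under quantile renormalization. Cat (0.60) and Mt2 (0.68) were then called higher at E19.5, and Sod1 (0.90), Sod2 (0.77), Cat (0.59) and Mt2 (0.71) in young adults against E10.5.

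Day by day, 2 members were called between E12.5 and E13.5, where 1.25% of probe sets were. Gpx1 fell by 1.14 ± 0.26 (adjusted p = 0.0286) and Mt1 rose by 0.84 ± 0.21 (adjusted p = 0.0393), both without overlap of arrays. At E12.5 the Gapdh difference was 2.93 to 4.37 and the hybridization controls read 10.03 to 10.52. At E13.5 these were 4.65 to 4.79 and 10.57 to 11.28, also without overlap. The part of these array measures in the Gpx1 and Mt1 calls was not tested. Between E18.5 and E19.5 Txnip rose 2.78-fold (log2 1.47 ± 0.25, adjusted p = 0.0019; second probe set 0.88, adjusted p = 0.0496), where 1.33% of probe sets were called. No member was called in the other 7 daily steps. The share of all probe sets called there was 2.53% from E10.5 to E11.5, 0.0976% from E11.5 to E12.5, 0.0599% from E13.5 to E14.5, 0.0377% from E14.5 to E15.5, 0.0111% from E15.5 to E16.5 and 0.0133% from E16.5 to E17.5. It was 0% from E17.5 to E18.5 in limma, where 2506 probe sets had an unadjusted p under 0.05. The calls were made on the same genes without the mixed arrays of E17.5 and E18.5.

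Old and young adult hearts differed in 2 members, Gpx3 and Mt2, beside 3.83% of probe sets called higher and 3.13% lower, and 0.00665% passed the DEG limits, none of them a member. Old adult Gpx3 read 10.26 (female), 10.04 (male) and 9.52 (mixed), above all young adult arrays. The difference was 0.77 ± 0.23 (1.71-fold, adjusted p = 0.0392). Old adult Mt2 read 8.09 (female), 10.10 (male) and 8.94 (mixed), so that the female array was within the young adult range of 8.08 to 8.11 and the male array stood 2.01 above the female array. The difference was 0.95 ± 0.29 (1.93-fold, adjusted p = 0.0403) and fell to 0.42 without the male array (adjusted p = 0.367). Gpx3 lost its call without any 1 young adult array or without the old male or female array (adjusted p = 0.0583 to 0.142). With the sex label as a block, in a limma fit of these 2 stages alone, the adjusted p was 0.183 for Gpx3 and 0.269 for Mt2.

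Old adult Mt1 showed the same order of arrays, 9.89 (female), 10.77 (male) and 10.10 (mixed), all above the young adult arrays of 9.87, 9.48 and 9.78. Its difference of 0.55 ± 0.21 was not called (adjusted p = 0.105). Sod2 and Cat were likewise highest on the old male array, at 10.49 and 9.77. Gpx1 differed by 0.37 ± 0.26 and Txnip by 0.34 ± 0.25, neither called.

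Over the 9 male and female pairs from E13.5 to old adults, none of the 10 members was called in limma, beside 0.0488% of all probe sets (22, with 3518 at an unadjusted p under 0.05). The largest mean differences in size were -0.18 ± 0.10, for Prdx3, in which the male array was higher in 2 of 9 pairs, and for Txnip, in which it was higher in 4. Mt2 was higher in the male array in 2 of 9 pairs, with pair differences from -0.72 to 2.01. The difference between the 2 adult and the 7 embryonic pairs was 1.22 for Mt2 (adjusted p = 0.116) and -0.65 for Txnip (adjusted p = 0.143), so no member was called, and 247 probe sets were.

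Within stages, arrays with more Mt1 also had more Mt2. Over the 36 deviations from stage means Pearson's r was 0.78 and Spearman's rho 0.80 (permutation within stages, adjusted p = 3.67e-05 over 11 relations, the smallest raw p that 100000 permutations can give being 1e-05). Without the 2 arrays farthest from the median of Mt1 r was 0.76, and without the old adults 0.72. It was 0.86 over the 18 arrays of E10.5 to E15.5, with the earlier title form, and 0.75 over the 15 arrays of E17.5 to old adults, with the later form. The dimmer Mt1 probe set (r = 0.52 with the first over 12 stage means) was not tested against Mt2. Whether the Mt1 probe set used here also reads Mt2 RNA was not tested.

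Several members also moved with the hybridization controls within stages. The relation was negative for Prdx3 (r = -0.83, rho = -0.84, permutation adjusted p = 3.67e-05), Sod1 (r = -0.76, rho = -0.76, permutation adjusted p = 3.67e-05) and Gpx3 (r = -0.72, rho = -0.70, permutation adjusted p = 5.5e-05). It was positive for the low probe set of Sod3 (r = 0.68, rho = 0.61, permutation adjusted p = 0.000528). Without the 2 arrays farthest from the median the values were -0.83, -0.76, -0.75 and 0.68. Within the earlier and the later title form they were -0.88 and -0.77 for Prdx3, -0.68 and -0.86 for Sod1, -0.86 and -0.61 for Gpx3, and 0.35 and 0.89 for Sod3. The other 6 members gave values from -0.40 (Sod2) to -0.07 (Txnip), with permutation adjusted p from 0.141 to 0.747. For each of these 6 the sign differed between the earlier and the later title form. The values were 0.70 and -0.71 for Cat, 0.40 and -0.70 for Mt1, 0.26 and -0.64 for Sod2, 0.51 and -0.39 for Mt2, -0.51 and 0.06 for Gpx1, and -0.54 and 0.13 for Txnip. Prdx3 and Gpx3 are lower, and Sod3 and the controls higher, at E19.5 and in young adults than at E10.5. The Sod3 call at E19.5 is lost without the mixed array, which has the highest controls of that stage. The part of the controls in those differences was not tested.

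**Figure D4:**
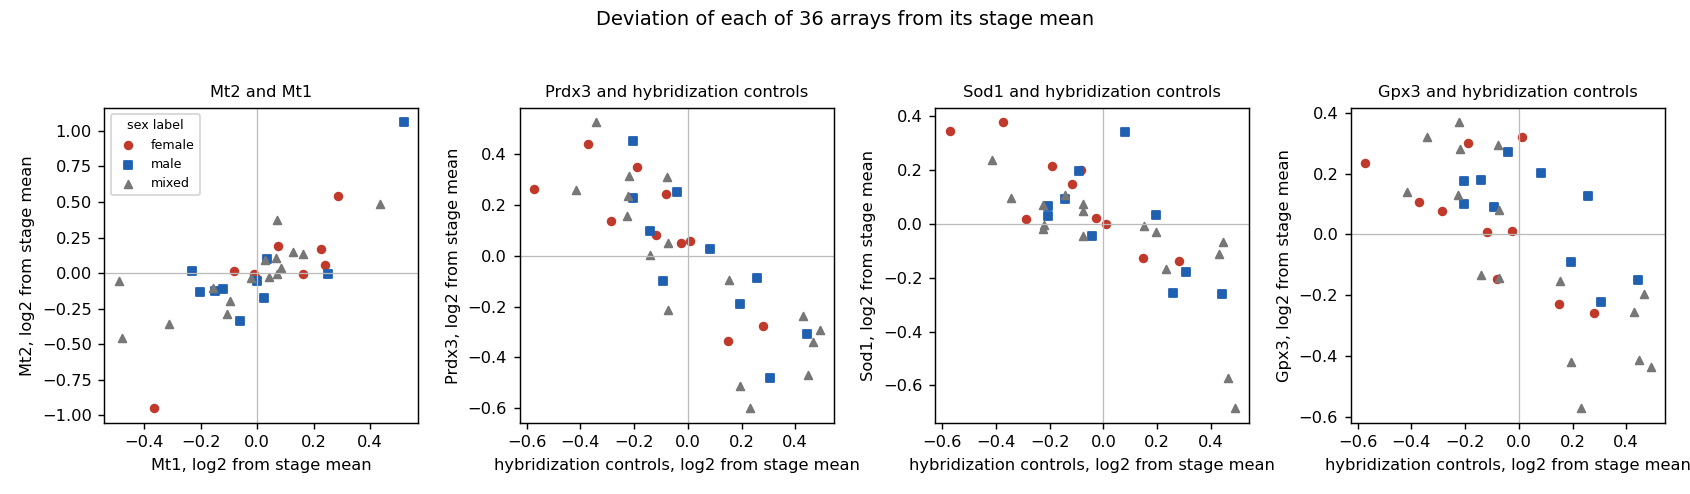
Deviation of each of the 36 arrays from its stage mean, in log2, for Mt2 against Mt1 and for Prdx3, Sod1 and Gpx3 against the mean of 18 hybridization control probe sets. Mt1 and Mt2 rise together (r = 0.78), and the other 3 fall as the controls rise (r from -0.83 to -0.72).

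Cell type markers changed over the same stages. The mean level of 11 erythroid markers was 6.65 to 7.20 over the E10.5 arrays, 3.96 to 3.99 at E19.5, 3.74 to 3.83 in young adults and 3.63 to 4.82 in old adults, with 7 of 11 called lower and 1 higher at E19.5, and 7 lower and 2 higher in young adults, than at E10.5. With centring the young adult split was 6 lower and 4 higher. Hba-a1, Epb42, Gata1 and Klf1 were among those under 5 at all stages, and Hbb-y, an embryonic globin and the brightest of the list, had a mean of 13.6 at E10.5 and of 3.5 at E19.5. The mean of 7 macrophage and leukocyte markers was 3.76 to 4.01 over the E10.5 arrays, 5.02 to 5.11 over the E19.5 arrays, 7.27 to 7.47 in young adults, where all 7 were called higher than at E10.5 and at E19.5, and 7.43 to 8.09 in old adults. Cd68 stayed under 5, and Csf1r, the brightest, had means of 4.7 at E10.5 and 9.1 in young adults. The mean of 6 adipocyte markers was 2.60 to 2.69 at E10.5 and 3.82 to 5.20 in young adults, where all 6 were called higher, with Cidec, Lep and Ucp1 under 5 throughout. Of the 6 endothelial markers 4, and of the 7 liver markers 5, were called higher in young adults than at E10.5, the latter at low levels (mean 4.04 to 4.09). The part of these cells in the levels of Gpx1, Gpx3, Prdx3, Mt1 and Txnip was not tested. In old against young adults, 4 of 5 smooth muscle markers were lower, and 2 of 7 cardiomyocyte and 2 of 6 endothelial markers were higher. Of the 7 macrophage and leukocyte markers 1 was called higher, and the largest log2 difference in that list was 2.00. Among the 7 fibroblast and epicardial markers 1 was called in each direction.

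The other genes of the same pathways give the setting of the 10. Each list count below is to be read beside the share of all probe sets called. At E19.5 against E10.5 this was 23.7% higher and 21.8% lower, and in young adults against E10.5 35.9% and 27.1%. In young adults against E19.5 it was 13.6% and 15.5%, and in old against young adults 3.83% and 3.13%. Of 12 further superoxide and peroxide enzymes on the array, 2 were higher and 3 lower at E19.5 than at E10.5, 4 and 5 in young adults against E10.5, 2 and 1 in young adults against E19.5, and none in old adults. Prdx6, which also reduces lipid peroxides, was 2.91-fold lower at E19.5 than at E10.5 (adjusted p = 7.02e-06), and Gpx2 1.88-fold higher at low levels. Gpx4, which protects membranes from lipid peroxides, was 3.75-fold higher in young adults than at E10.5 (adjusted p = 1.85e-14) and 2.39-fold higher than at E19.5, and the endoplasmic reticulum peroxidase Gpx8 was 5.46-fold lower than at E10.5 (adjusted p = 2.76e-09). With centring on expressed probe sets the split of the first comparison was 7 higher and 3 lower, and that of the second 6 and 1.

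In the thioredoxin and glutaredoxin system (19 genes), 2 were higher and 6 lower at E19.5 than at E10.5, and 7 higher and 5 lower in young adults than at E10.5, or 8 and 5 and 12 and 4 with centring. Thioredoxin itself, Txn1, the partner of Txnip, was 3.63-fold lower at E19.5 than at E10.5 (adjusted p = 3.59e-05) while Sesn1 was 2.10-fold higher. In young adults Sesn1 was 4.82-fold higher and Sesn3 4.26-fold lower than at E10.5. Against E19.5, 7 were higher and 3 lower, from Msrb1, a methionine sulfoxide reductase (2.89-fold higher), to Txnrd3 (2.09-fold lower). In old adults Txnrd1 was 1.66-fold higher (adjusted p = 0.0313) and Msrb2 1.67-fold lower than in young adults (adjusted p = 0.00904).

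Among 25 genes of glutathione synthesis and transfer, 7 were higher and 6 lower at E19.5 than at E10.5 (3 and 6 without the mixed E19.5 array), with the transferase Gstm1 2.86-fold higher and glutathione reductase Gsr 2.41-fold lower. In young adults 13 were higher and 5 lower than at E10.5, and 10 higher and 2 lower than at E19.5; with centring these splits were 19 and 3, and 13 and 1. Gstt1 was 10.0-fold higher than at E10.5 (adjusted p = 1.37e-14) and 6.71-fold higher than at E19.5. Gclc, the catalytic subunit of the first enzyme of glutathione synthesis, was 3.68-fold lower than at E10.5 (adjusted p = 7.17e-11). It was 1.87-fold higher in old than in young adults (adjusted p = 0.00137), and Gsta2 1.96-fold higher at low levels.

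Of 16 genes of NRF2 and its targets, 2 were higher and 7 lower at E19.5, and 6 and 5 in young adults, against E10.5, or 4 and 4, and 10 and 3, with centring. Txnrd1, cytosolic thioredoxin reductase, fell 3.30-fold by E19.5 and stood 4.02-fold lower in young adults, both against E10.5. Nqo1 was 1.62-fold higher at E19.5. Nfe2l2, which encodes NRF2, was 4.06-fold higher in young adults than at E10.5 (adjusted p = 2.88e-09) and 4.08-fold higher than at E19.5, where 8 of the list were higher and 2 lower (Pgd, 2.34-fold). In old adults 3 were higher than in young adults, among them Gclc and Srxn1 (1.56-fold, adjusted p = 0.0122).

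The 22 metal handling genes split evenly in young adults against E10.5, with 8 higher and 8 lower, while 4 were higher and 8 lower at E19.5; with centring these were 12 and 7, and 7 and 7. Ceruloplasmin, Cp, a copper-carrying ferroxidase, was 5.25-fold higher at E19.5 and 24.0-fold higher in young adults than at E10.5 (adjusted p = 7.7e-16). Slc39a8, a zinc and manganese importer, was 4.75-fold and 6.99-fold lower. Against E19.5, 5 genes were higher and 4 lower in young adults, from Hamp, which encodes hepcidin (5.33-fold higher), to the copper pump Atp7a (2.76-fold lower). In old adults 5 were higher and none lower than in young adults, among them the zinc exporter Slc30a1, a known MTF1 target (2.40-fold, adjusted p = 0.0122), and Cp (1.92-fold, adjusted p = 0.0217). With quantile renormalization 3 were called.

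Among 11 alpha-arrestins and regulators of Txnip, 4 were higher and 3 lower at E19.5, and 5 and 3 in young adults, against E10.5, or 5 and 2, and 8 and 2, with centring. The glucocorticoid-responsive factor Klf9 was 9.70-fold higher at E19.5 and 23.9-fold higher in young adults. Arrdc3, the arrestin relative of Txnip, was 3.12-fold lower at E19.5, and Nfya 4.84-fold lower in young adults. Against E19.5, 3 were higher and 1 lower, with Mlxipl, which encodes ChREBP, 2.54-fold higher (adjusted p = 2.06e-05) and Nfya 1.73-fold lower; none was called between old and young adults.

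Of 14 glucocorticoid-responsive genes, 9 were higher and 2 lower at E19.5 than at E10.5 (10 and none without the mixed E19.5 array, 12 and none with centring), and 12 were higher and none lower in young adults. Their median differences were 0.98 and 1.39, those of all probe sets 0.15 and 0.19, and those of probe sets with a stage mean over 5 -0.21 and -0.41. Angptl4, an inhibitor of lipoprotein lipase, was 9.93-fold higher at E19.5 than at E10.5 (adjusted p = 9.89e-16) and 6.71-fold lower in young adults than at E19.5. Sult1a1 was 41.6-fold higher in young adults than at E10.5 (adjusted p = 5.7e-21), and Cebpd 8.76-fold higher than at E19.5, where 8 were higher and 2 lower. Tsc22d3, a common glucocorticoid reporter, was 1.69-fold lower at E19.5 than at E10.5 (adjusted p = 0.0352). Per1 was 1.86-fold higher in old than in young adults (adjusted p = 0.0464), a call lost under centring and under quantile renormalization.

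Of 16 mitochondrial genes, 3 were higher and 4 lower at E19.5, and none higher and 8 lower in young adults, against E10.5. Without the mixed E19.5 array the first split was 1 and 3. With quantile renormalization the second split was 1 and 6, and with centring 4 and 4, so the direction of this list was lost under centring only. The chaperonin Hspd1 was 5.26-fold lower at E19.5 and 4.35-fold lower in young adults. In young adults against E19.5, 5 were lower and none higher. The median differences of the list in young adults were -0.46 against E10.5 and -0.14 against E19.5. Those of probe sets with a stage mean over 5 were close, at -0.41 and -0.13, and those of all probe sets were 0.19 and 0.04. Among the called genes, the least lowered in young adults against E10.5 was Uqcrc2 (1.31-fold), and against E19.5 Vdac1 (1.71-fold). Genes not called reached log2 differences of up to 0.59 and 0.47 in these comparisons. None was called between old and young adults.

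**Figure D5:**
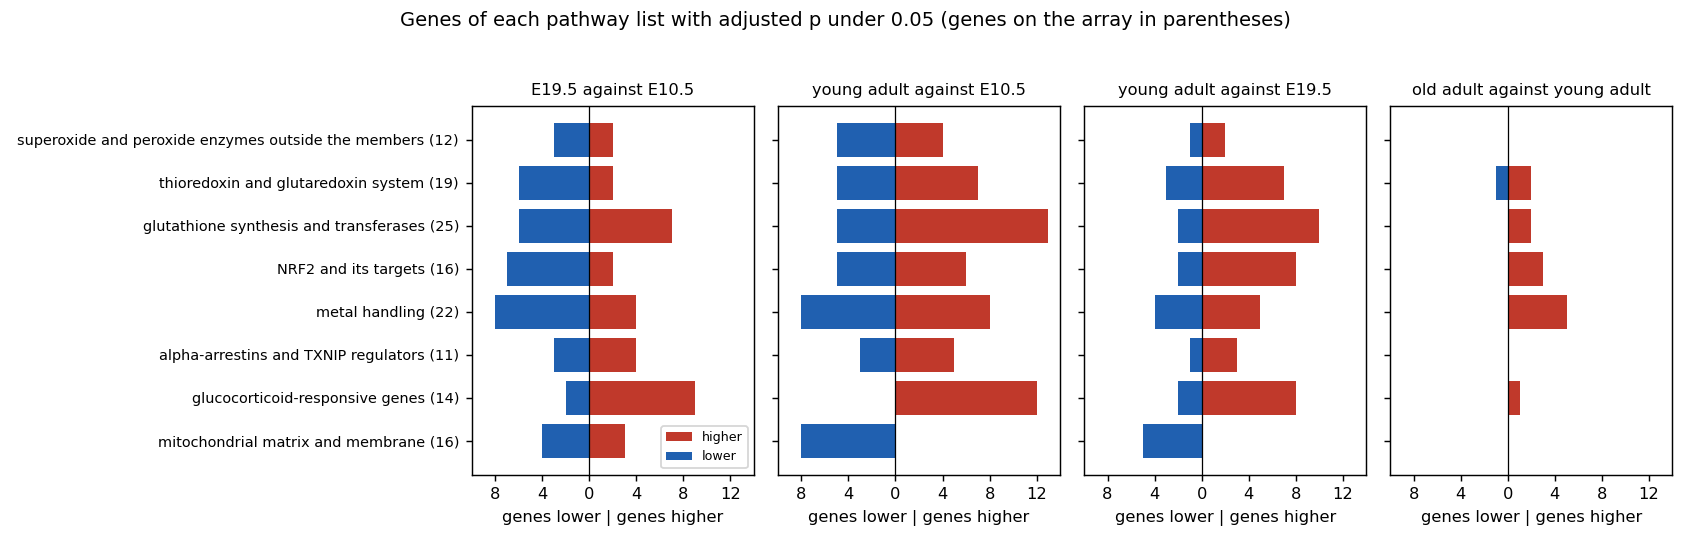
Number of genes called lower (left of 0) and higher (right of 0) in each of 8 pathway lists (y axis, genes on the array in parentheses) for the 4 main comparisons. Glucocorticoid-responsive genes have 12 higher and none lower in young adults against E10.5, and mitochondrial genes 8 lower and none higher. Of all probe sets 35.9% were called higher and 27.1% lower there.

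The genes whose 12 stage means followed each member most closely are given as a description, with all points sharing the same arrays. For Gpx1 they were Gabarapl2, Rps14 and Cox7a2l (r = 0.99 each), and for Gpx3 Rdx (0.99), P4hb (0.98) and Nelfe (0.98). Rock1, Ube2g2 and Ctsb followed Sod1 (0.98 each), and Npas2 (0.98), Egln3 (0.97) and Ndufv2 (0.97) followed Sod2. For Mt1 they were Chst15 (0.99), Syngr2 (0.98) and 9130009M17Rik (0.98), and for Mt2 Arhgap26 (0.93), Spns2 (0.92) and Fam65a (0.92). Txnip was followed by Cd99 (0.99), Osmr (0.97) and Amy1 (0.97), and Prdx3 by Wdr26, Timm8b (both 0.97) and Eif4e2 (0.96). For Sod3, at low levels, they were 4931429L15Rik (0.98), 9430038I01Rik and Igdcc3 (both 0.97). Cat had no close follower, the nearest being Mkl2 (0.87), Ets1 (0.83) and Zfp800 (0.81). Of the 11 pairs of neighbours in the order of stage means, 3 were separate on all arrays for Sod1, Mt1 and Txnip, 2 for Gpx1, Sod2 and Mt2, 1 for Gpx3 and Sod3, and none for Cat and Prdx3. This order sets the closest means side by side, whatever their place in development, which by itself favours overlap. The share over all probe sets was not counted, and no conclusion is drawn.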

How the data were processed

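Poly(A) RNA of 36 heart samples was measured on a 1-colour Affymetrix whole-genome mouse array. The authors processed the arrays by robust multi-array average (background correction, quantile normalization and probe summary), and the deposited values are log2 intensities, used here without further scaling. The submitters' processing notes name Affymetrix Expression Console, Partek 6.6 and RMA. The study's methods name RMA in R. No column of sample values was left unused.

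In R 4.3.3, limma 3.58.1 fitted the 12 stage means in 1 model of 45101 probe sets and all 36 arrays, with Benjamini-Hochberg adjustment within each comparison. For sex, the male array was set against the female array of its stage in 9 pairs, E13.5 and later, with stage as a block. The 11 relations within stages were tested by 100000 permutations within stages, two-sided (NumPy 2.4.6). The limma fit of the 4 main stage comparisons was tested on simulated data, in which fewer probe sets changed than were called here.

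The member genes, pathway lists and marker lists were chosen with earlier results of these data known. A gene is read from the probe set with the highest mean over all arrays. Of 191 list genes 184 were found on the array (2 by gene ID alone), and the other 7, Hbb-b1, Myh6, Prdx1, Serpina1a, Plin1, Gsta1 and Ftl1, were not analysed here. Named are all members, the highest and lowest called gene of each pathway list in each main comparison, and the 3 genes with the highest r to each member among those with a stage mean over 5. A few genes that this rule names are not reported here. Marker genes are named for the highest mean of their list or as markers under 5. Alternatives were quantile renormalization, centring, the place of the expression filter, the arrays in the fit, an intensity trend, the mean over probe sets, the fold limit, leaving out each array, and the sex label as a block. Others were added after seeing the data: young adults against each stage, leaving out the mixed arrays of E17.5 to E19.5, and the scaling of lists and daily steps.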

Additional observations from a re-analysis of the deposited data

How the results depend on the processing

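Of 496 alternative values of the members' log2 fold changes under 19 settings, 22 lost their call and 14 gained one with the same sign. No called difference changed sign. The other 460 were counted as unchanged, which includes any difference that was not called and changed its sign. The number of members past the DEG limits, 1 in each of the first 3 comparisons, was the least stable. For E19.5 against E10.5 it was 2 with quantile renormalization, centring or a log2 limit of 1, and 0 with those 2 stages alone in the fit or with the mean over all probe sets. For young adults against E10.5 it was 2 with centring or a log2 limit of 1, and 0 with the 2 stages alone. For young adults against E19.5 it was 0 with the 2 stages alone. It was also 0 with the sex label as a replicate block, again with the 2 stages alone in the fit. Leaving out 1 array gave 1 to 2 for E19.5 against E10.5, with 2 (Txnip and Mt1) without the third E10.5 array or without the mixed E19.5 array, and 0 to 1 for young adults against E19.5, with 0 without the mixed E19.5 array or the young adult female array. A fit with fewer arrays estimates the spread from fewer values; otherwise the cause was not tested.

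The 2 members called between old and young adults became 1 with quantile renormalization and 1 with centring (Gpx3), 0 with those stages alone, and 0 with the sex label as a replicate block. Leaving out 1 array gave 0 to 2, with 0 without any 1 young adult array or without the old male array. The block was fitted only for young adults against E19.5 and for old against young adults, on the arrays of the 2 stages compared. Its effect is therefore not separate from that of the smaller fit. It changed no other count of calls in these comparisons. It assumes that arrays of one sex label share something across stages, which the labels do not state. The number of members called in the other main comparisons ranged from 6 to 9 for E19.5 against E10.5, 5 to 9 for young adults against E10.5 and 2 to 4 for young adults against E19.5. Filtering on a stage mean over 5 before the fit removes Sod3.

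Without the mixed E19.5 array, 4 of 16 mitochondrial genes were called between E19.5 and E10.5, against 7 with it, and 3 of 14 glucocorticoid-responsive genes between old and young adults, against 1. With quantile renormalization the called genes among the superoxide and peroxide enzymes at E19.5 against E10.5 were 8, and with centring 10, against 5. Low intensity limits what can be said of Sod3, of the second probe sets of Mt1 and Txnip, and of the dimmest probe sets of Sod1 and Sod2.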
